A study of Mus musculus with 16 samples.

Results

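The signalling proteins that link IRAK1 to the kinase TAK1 were followed here through their genes in mouse embryonic fibroblasts (MEFs), connective tissue cells cultured from embryos. The genes were a list of 10 names, with no threshold on a measured value: Irak1, Irak2, Irak3, Irak4, Traf6, Tab1, Tab2, Tab3, Map3k7 and Tollip. Of these, 9 had a probe set paired with their gene alone, out of 19938 genes so measured, and Irak4 was not analysed here because no probe set is paired with it. Each of the 9 had exactly 1 such probe set. The 16 arrays fell into 4 groups of 4: TNFα treated SIMPL-/- MEFs, untreated SIMPL-/- MEFs, TNFα treated littermate MEFs and untreated littermate MEFs. By the order of the labels these are arrays 13 to 16, 9 to 12, 5 to 8 and 1 to 4, and each gene's values are given in that order within a group. SIMPL is the protein of the gene Irak1bp1, and the labels call the genotypes IRAK1BP1-/- and WT, all of strain C57Bl/6 x 129Sv. Treated cells received recombinant human TNFα at 10 ng/ml, for 45 min by the labels and 1 h by the study's methods. Those methods say that single embryos were the source of the MEFs, in 4 independent derivations per genotype. What part of Irak1bp1 was removed is not given in the sources used here.

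When a receptor of the interleukin-1 or Toll-like family binds its ligand, the adaptor MyD88 gathers the kinases IRAK4 and IRAK1, with IRAK2. IRAK1 then binds the ubiquitin ligase TRAF6, whose ubiquitin chains are read by TAB2 and TAB3 and so bring in TAK1, the kinase encoded by Map3k7, with its activator TAB1. TAK1 activates the IκB kinases, which free NF-κB, and the kinases that lead to JNK and p38. IRAK-M, encoded by Irak3, and Tollip are known as brakes near the receptor. TNFα uses another receptor complex and shares TAK1 and its TAB partners with this pathway. SIMPL was named for its binding to IRAK1, and the arrays show whether the genes of this pathway stood at other levels, or answered TNFα otherwise, in cells without SIMPL.

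The promoters of 2 of the genes are shown because Traf6 was the single one of the 9 that passed the test for a TNFα response in littermate MEFs, and because Map3k7, which did not, was the single one whose promoter held a κB motif. They are RefSeq windows (GRCm38.p6) of 300 bases, with 250 before the start site and 50 after it, given 5′ to 3′, with the motif in capitals. The κB motif was searched on both strands as GGG, any 3 bases and TTCC, and 5.56% of all 32851 windows held it. An AP-1 motif, searched as TGANTCA, was held by 7.81%. No window of the 9 genes held the AP-1 motif, so the motifs did not overlap in these windows. In all, 8 of the 9 genes had a window (11 windows), and Tab1 had none in the table. The Map3k7 window is chr4:31963857-31964156 and the Traf6 window is chr2:101678170-101678469, both on the + strand.
Map3k7: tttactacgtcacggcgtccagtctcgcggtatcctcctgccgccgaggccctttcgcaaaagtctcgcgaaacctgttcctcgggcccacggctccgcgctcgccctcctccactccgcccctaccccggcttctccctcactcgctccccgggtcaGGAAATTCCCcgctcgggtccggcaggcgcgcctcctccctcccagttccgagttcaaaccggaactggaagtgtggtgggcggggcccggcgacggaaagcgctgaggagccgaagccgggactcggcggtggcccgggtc
Traf6: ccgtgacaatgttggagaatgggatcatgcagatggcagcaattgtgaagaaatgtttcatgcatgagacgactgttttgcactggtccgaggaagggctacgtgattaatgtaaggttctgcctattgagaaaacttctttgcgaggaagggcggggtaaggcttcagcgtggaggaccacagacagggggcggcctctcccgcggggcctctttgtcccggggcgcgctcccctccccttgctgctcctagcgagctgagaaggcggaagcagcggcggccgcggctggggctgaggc
The match in the Map3k7 window, GGAAATTCCC, began 92 bases before the start site. The Traf6 window is in lower case throughout because it held neither motif.

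Irak1bp1 served as the check of the labels. On the log2 scale of the deposited values it averaged 5.37 ± 0.24 in treated and 5.36 ± 0.19 in untreated SIMPL-/- MEFs, and 7.91 ± 0.18 in treated and 8.09 ± 0.17 in untreated littermate MEFs (SD, n = 4 arrays each). The genotypes did not overlap on any array. Pairs of arrays from one group correlated across genes, which are not independent of each other, at a Pearson's r of 0.995 or more, and a typical gene had a within-group SD of 0.089 to 0.103 (median over genes). The number of arrays limits the precision, and which treated and untreated arrays share an embryo is not given. Fibroblast markers, such as Col1a1 and Vim, were bright, with a mean over 10 genes between 12.5 and 12.61 on each array. That mean covers changes in both directions: 3 of the 10 were higher and 6 lower in SIMPL-/- MEFs, with and without TNFα, among them S100a4 (log2 differences 1.70 and 1.69), Thy1 (0.71 and 0.73) and Dcn (-1.01 and -1.02). All 18 listed markers of myeloid cells, which include Ptprc, Csf1r and Adgre1, were lower in SIMPL-/- MEFs with and without TNFα (adjusted p under 0.05, limma). Their mean log2 value ranged from 7.51 to 7.65 on treated and 7.5 to 7.67 on untreated SIMPL-/- arrays, and from 9.63 to 10.1 on treated and 9.55 to 9.95 on untreated littermate arrays. In SIMPL-/- MEFs 6 of the 18 with TNFα and 7 without it stood under the median of all genes, 7.06, against 1 in each littermate group. Of 7 epithelial markers 3 were higher in SIMPL-/- MEFs with TNFα and 5 without it, and 0 were lower. They were led by the keratins Krt18 (log2 differences 2.08 and 2.13), Krt8 (1.59 and 1.64) and Krt14 (1.55 and 1.64), while Epcam averaged 5.72 and 5.65 in treated and untreated SIMPL-/- MEFs and 5.71 and 5.56 in treated and untreated littermate MEFs, below the median gene. The mean over the 7 ranged from 7.22 to 7.26 on treated and 7.19 to 7.57 on untreated SIMPL-/- arrays, and from 6.37 to 6.64 on treated and 6.3 to 6.47 on untreated littermate arrays. Of 5 neural markers 2 were higher with and without TNFα, Tubb3 (1.31 and 1.30) and Nes (0.89 and 0.56). Lower were 1 with TNFα, Map2 (-0.79), and 2 without it, Map2 (-0.94) and Sox2 (-0.54). Among 7 endothelial markers 3 were higher and 1 lower in SIMPL-/- MEFs with TNFα, and 3 higher and 0 lower without it. Among 5 muscle markers 3 were higher with TNFα and 2 without it, and 0 were lower. Of the lymphoid markers, 5 were measured and 0 passed under either condition. Beside the counts of every marker list, 17.8% of all genes were higher and 18.4% lower in SIMPL-/- MEFs with TNFα. Without it 23.3% were higher and 17.6% lower. Fewer cells of a type and less RNA per cell cannot be told apart in such samples. The part of these marker changes in the results on the pathway genes was not tested.

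**Figure D1:**
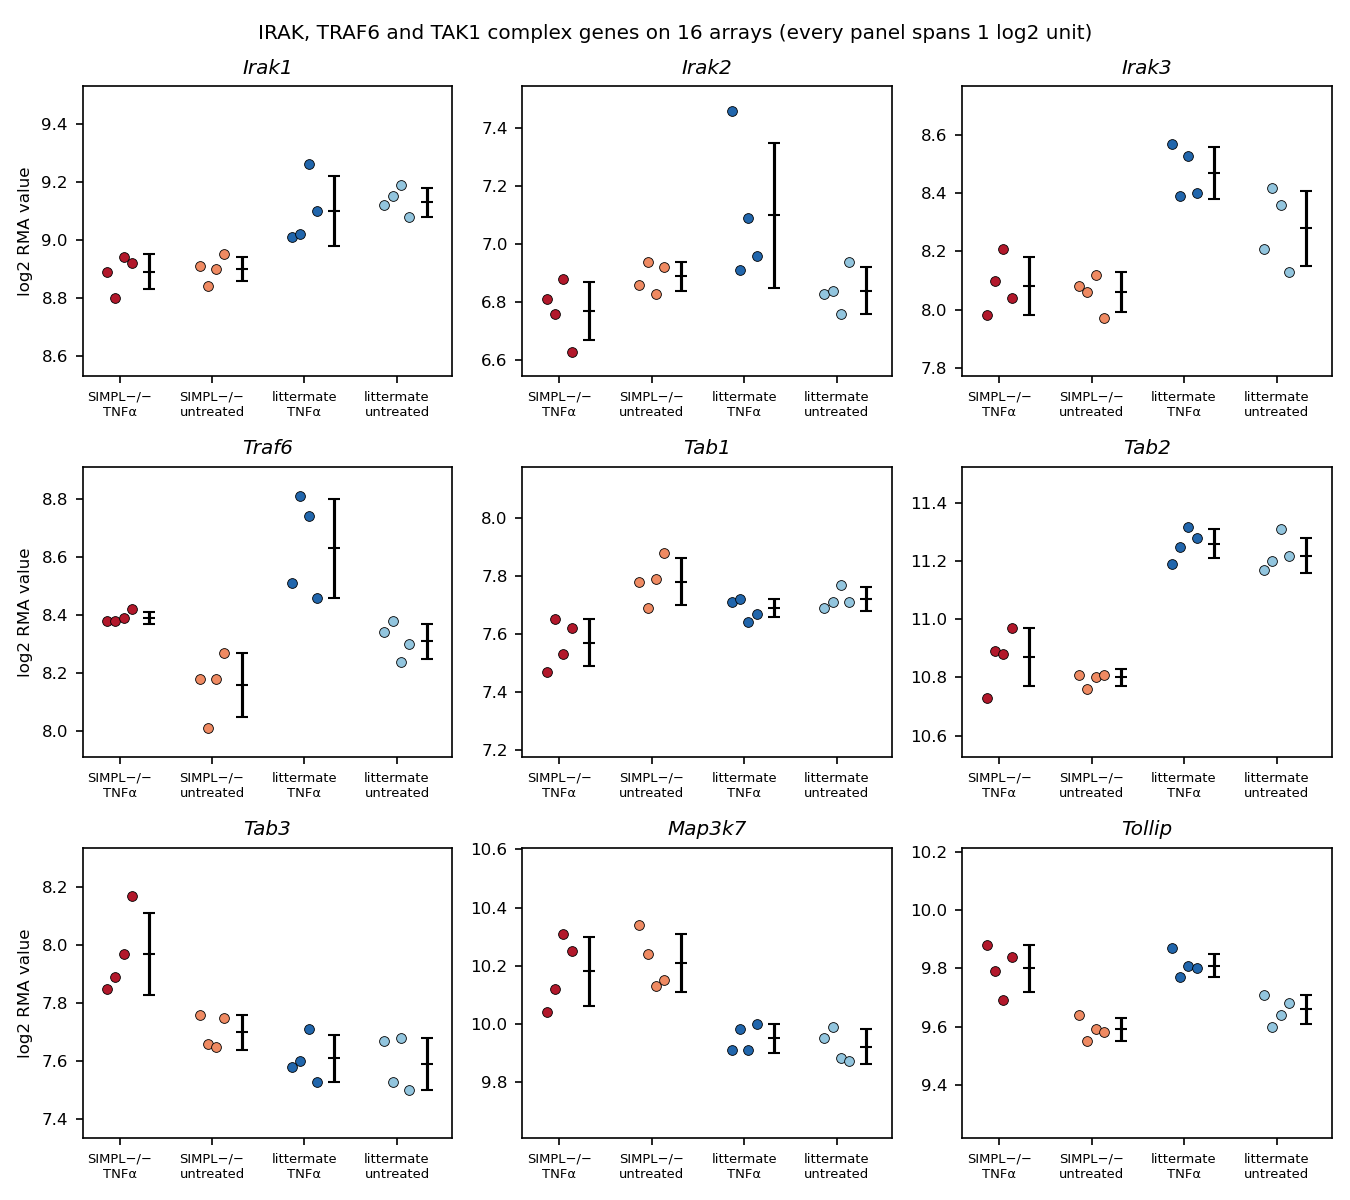
Log2 RMA values (vertical axes) of the 9 genes on each of the 16 arrays (points, 4 to a group); black bars give each group's mean ± SD; every panel spans 1 log2 unit. Tab2 shows SIMPL-/- arrays at 10.73 to 10.97, all below the littermate arrays at 11.17 to 11.32, while for Tollip the treated arrays of each genotype sit above its untreated ones.

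After TNFα, 7 of the 9 pathway genes passed the test for another level in SIMPL-/- than in littermate MEFs, a count that was 4 with the unpaired test that the methods name and 5 with arrays centred on their medians. A single linear model of the 4 groups (limma, with Benjamini-Hochberg adjustment over all genes) put these 7 past an adjusted p of 0.05, against 36.3% of all genes. Irak1, Irak2, Irak3, Traf6 and Tab2 were lower (5 of 9, against 18.4% of all genes), and Tab3 and Map3k7 were higher (2 of 9, against 17.8%). Without TNFα 4 of the 9 passed, which is 44.4%, close to the 40.9% of all genes that did. Those were Irak1, Irak3 and Tab2, which were lower (3 of 9, against 17.6%), and Map3k7, which was higher (1 of 9, against 23.3%). The genes whose arrays did not overlap between the genotypes were the same 7 with TNFα (33.3% of all genes did not overlap) and the same 4 without it (39.6%). The changes were small: the median absolute log2 difference of the 9 genes was 0.241 with TNFα and 0.153 without it, beside 0.137 and 0.161 over all genes. Of the genes called, 49.2% were higher with TNFα and 56.9% without it, and these shares were 67.3% and 68.6% with arrays centred on their medians. The counts are a description of these 9 genes, which were not compared with lists of the same size.

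**Figure D2:**
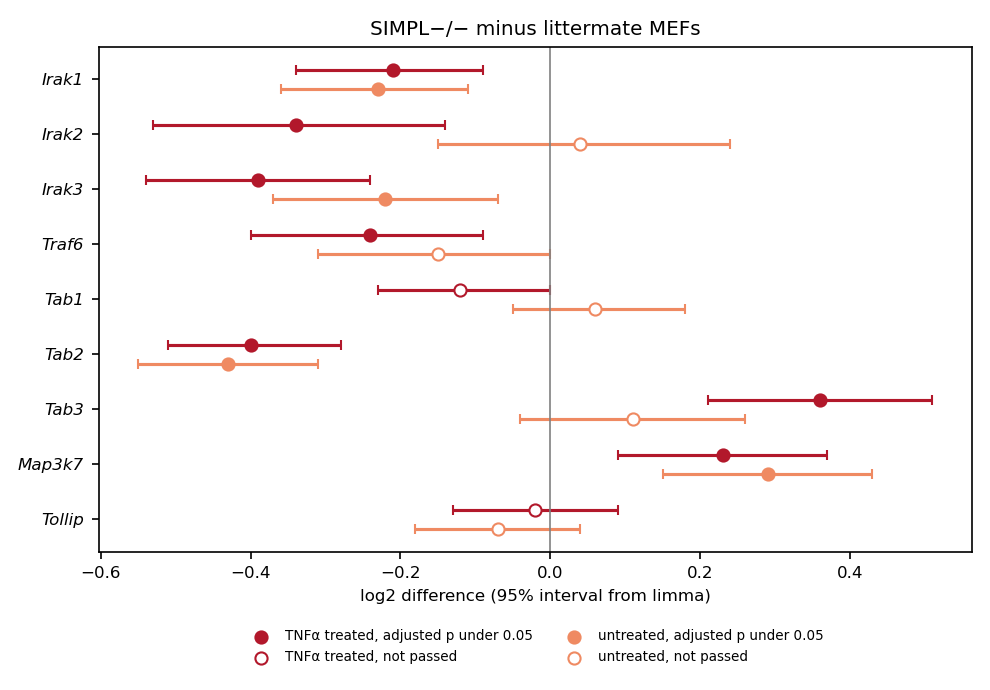
Log2 difference between SIMPL-/- and littermate MEFs (horizontal axis) of each gene, with TNFα (dark red) and without it (orange); bars are 95% intervals from limma, filled points passed an adjusted p under 0.05. Irak1, Irak3 and Tab2 lie left of 0 and Map3k7 right of 0 under both conditions, and Irak2, Traf6 and Tab3 passed with TNFα alone.

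IRAK1, the kinase that SIMPL binds, hands the signal to TRAF6. Irak1 had log2 values of 8.89, 8.80, 8.94 and 8.92 in treated SIMPL-/- MEFs, against 9.01, 9.02, 9.26 and 9.10 in treated littermate MEFs. Without TNFα it had 8.91, 8.84, 8.90 and 8.95 in SIMPL-/- MEFs, against 9.12, 9.15, 9.19 and 9.08 in littermate MEFs. No SIMPL-/- array reached a littermate array under either condition. The log2 difference was -0.21 with TNFα (SE 0.06, adjusted p = 0.00734 from limma), a level 13.8% lower, and -0.23 without it (SE 0.06, adjusted p = 0.00398), a level 14.9% lower. The difference with TNFα did not pass when arrays were centred on their medians or with the unpaired test that the methods name (adjusted p up to 0.0655). The order of the 4 means followed the genotype, and within a genotype the treated and untreated arrays overlapped.

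IRAK2, a kinase-like partner of IRAK1 that sustains signalling, showed the widest spread within groups of the 9 genes. Its residual SD, after limma's moderation over all genes, was 0.129 on the log2 scale. Irak2 stood at 6.81, 6.76, 6.88 and 6.63 in treated SIMPL-/- MEFs, against 7.46, 6.91, 7.09 and 6.96 in treated littermate MEFs. The untreated arrays lay between 6.83 and 6.94 in SIMPL-/- MEFs and between 6.76 and 6.94 in littermate MEFs. The treated littermate group thus held both the highest array and an array, at 6.91, inside the range of the untreated ones. With TNFα the log2 difference between the genotypes was -0.34 (SE 0.09, adjusted p = 0.00672 from limma), which is 20.7% lower. It did not pass with the test that the methods name (adjusted p = 0.121), and without the array at 7.46 it was -0.22 (adjusted p = 0.0184). Untreated, the difference of Irak2 was 0.04, with a 95% interval from -0.15 to 0.24.

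IRAK-M, the brake that in mice is best known from macrophages, was also lower. Irak3 had values of 7.98, 8.10, 8.21 and 8.04 in treated SIMPL-/- MEFs and of 8.57, 8.39, 8.53 and 8.40 in treated littermate MEFs. Untreated, it had 8.08, 8.06, 8.12 and 7.97 in SIMPL-/- MEFs, against 8.21, 8.42, 8.36 and 8.13 in littermate MEFs. The genotypes did not overlap under either condition, though the untreated groups were only 0.01 apart at their nearest arrays. The log2 difference was -0.39 with TNFα (SE 0.07, adjusted p = 0.000226 from limma), or 23.5% lower, and -0.22 without it (SE 0.07, adjusted p = 0.0177), or 14.4% lower. The untreated difference of Irak3 did not pass after quantile normalization, with the test that the methods name, or without array 2, 3 or 12 (adjusted p = 0.066, 0.0551 and 0.0594). Myeloid markers moved the same way as Irak3, with a median log2 difference over the 18 of -2.37 with TNFα and -2.29 without it, and their part in the difference of Irak3 was not tested.

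Tollip binds IRAK1 and holds the receptor complex in check, and its arrays overlapped between the genotypes under both conditions. Treated SIMPL-/- arrays had 9.88, 9.79, 9.69 and 9.84 and treated littermate arrays 9.87, 9.77, 9.81 and 9.80, a log2 difference of -0.02 with a 95% interval from -0.13 to 0.09. Untreated, Tollip had 9.64, 9.55, 9.59 and 9.58 in SIMPL-/- MEFs, against 9.71, 9.60, 9.64 and 9.68 in littermate MEFs, a difference of -0.07 (95% interval -0.18 to 0.04). Neither difference passed the test, and the intervals bound it at 0.18 in either direction.

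TRAF6, the ubiquitin ligase at the centre of the pathway, had a lower gene level in SIMPL-/- MEFs after TNFα. Traf6 was at 8.38, 8.38, 8.39 and 8.42 in treated SIMPL-/- MEFs, against 8.51, 8.81, 8.74 and 8.46 in treated littermate MEFs. In untreated cells it was at 8.18, 8.01, 8.18 and 8.27 in SIMPL-/- MEFs, against 8.34, 8.38, 8.24 and 8.30 in littermate MEFs. The treated SIMPL-/- arrays lay within 0.04 of each other and just below the lowest treated littermate array, and the untreated groups overlapped. The log2 difference was -0.24 with TNFα (SE 0.07, adjusted p = 0.0148 from limma), 15.4% lower, and -0.15 without it (SE 0.07, adjusted p = 0.105). The call for Traf6 with TNFα was lost when arrays were centred on their medians, after quantile normalization, with the test that the methods name, and without array 6 or 7 (adjusted p = 0.0665 and 0.0557).

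Within the TAK1 complex the genes moved in opposite directions. The kinase itself, encoded by Map3k7, was higher in SIMPL-/- MEFs: 10.04, 10.12, 10.31 and 10.25 with TNFα, against 9.91, 9.98, 9.91 and 10.00 in treated littermate MEFs. Untreated SIMPL-/- arrays had 10.34, 10.24, 10.13 and 10.15, against 9.95, 9.99, 9.88 and 9.87 on untreated littermate arrays. Every SIMPL-/- array was above every littermate array of the same treatment. The log2 difference of Map3k7 was 0.23 with TNFα (SE 0.06, adjusted p = 0.00913 from limma), a level 17.2% higher, and 0.29 without it (SE 0.06, adjusted p = 0.00151), a level 22.4% higher. Both calls were kept under all alternatives that were run. The adjusted p-values of limma or the unpaired test reached 0.047 with TNFα, near the threshold, and 0.0102 without it. The Map3k7 promoter shown above held a κB match, as did 5.56% of all windows. The gene differed between the genotypes, and its TNFα responses were both within 0.03 of 0. A link between the match and these values was not tested.

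TAB2, the adaptor that ties TAK1 to ubiquitin chains, had the clearest difference of the 9 genes. Tab2 had 10.73, 10.89, 10.88 and 10.97 in treated SIMPL-/- MEFs, against 11.19, 11.25, 11.32 and 11.28 in treated littermate MEFs. Untreated, it had 10.81, 10.76, 10.80 and 10.81 in SIMPL-/- MEFs and 11.17, 11.20, 11.31 and 11.22 in littermate MEFs. The nearest SIMPL-/- and littermate arrays of one treatment were 0.22 apart, more than the SD within any group. The log2 difference of Tab2 was -0.40 with TNFα (SE 0.06, adjusted p = 1.2e-05 from limma), 24% lower, and -0.43 without it (SE 0.06, adjusted p = 5.63e-06), 25.7% lower. Both calls were kept under all alternatives that were run, with adjusted p-values of at most 0.00328.

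TAB3, which does the same work as TAB2 in the complex, went the other way. Tab3 had 7.85, 7.89, 7.97 and 8.17 in treated SIMPL-/- MEFs, all above the 7.58, 7.60, 7.71 and 7.53 of treated littermate MEFs. Untreated, the genotypes overlapped, with 7.76, 7.66, 7.65 and 7.75 in SIMPL-/- MEFs, against 7.67, 7.53, 7.68 and 7.50 in littermate MEFs. With TNFα the log2 difference was 0.36 (SE 0.07, adjusted p = 0.000379 from limma), 28.4% higher, and it was kept under all alternatives that were run. Untreated, it was 0.11 (SE 0.07, adjusted p = 0.215) and passed after quantile normalization alone, at 0.17 (adjusted p = 0.0346).

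TAB1, the partner that activates TAK1 by direct binding, did not pass in either comparison of the genotypes. Tab1 had 7.47, 7.65, 7.53 and 7.62 in treated SIMPL-/- MEFs, against 7.71, 7.72, 7.64 and 7.67 in treated littermate MEFs, and these groups overlapped at 1 array. Untreated, it had 7.78, 7.69, 7.79 and 7.88 in SIMPL-/- MEFs, against 7.69, 7.71, 7.77 and 7.71 in littermate MEFs. The log2 difference was -0.12 with TNFα (SE 0.05, adjusted p = 0.107 from limma) and 0.06 without it (95% interval -0.05 to 0.18).

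The TNFα responses that passed were few in number, and no such call was kept under all alternatives. Past an adjusted p of 0.05 from limma were 3 of the 9 (33.3%) in SIMPL-/- MEFs, against 3.12% of all genes. Tollip and Tab3 were higher (1.73% of all genes were) and Tab1 lower (1.39%) after TNFα. In littermate MEFs 1 of the 9 passed (11.1%), Traf6, against 5.15% of all genes, and it was higher, as 2.7% of all genes were. Not overlapping between treated and untreated arrays were 4 of the 9 in SIMPL-/- MEFs, the 3 called and Traf6 (9.28% of all genes), and 2 in littermate MEFs, Traf6 and Tollip (11.4%). The median absolute log2 response of the 9 was 0.118 in SIMPL-/- and 0.0393 in littermate MEFs, beside 0.0706 and 0.0728 over all genes. Of the calls over all genes 55.4% were higher in SIMPL-/- MEFs with TNFα than without it, and 72.5% with arrays centred on their medians. Irak1, Tab2 and Map3k7 had responses between -0.03 and 0.07 in both genotypes, with 95% intervals that reached no farther than -0.17 and 0.19.

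Traf6 and Tollip had positive responses in both genotypes. Traf6 rose by a log2 fold change of 0.32 in littermate MEFs (SE 0.07, adjusted p = 0.0131 from limma), or 24.9%, and had 0.23 in SIMPL-/- MEFs (SE 0.07, adjusted p = 0.109), where all treated arrays were above all untreated ones. Tollip rose by 0.21 in SIMPL-/- MEFs (SE 0.05, adjusted p = 0.034), or 15.7%, and had 0.16 in littermate MEFs (SE 0.05, adjusted p = 0.112), again with all treated arrays above the untreated ones. For neither gene did the difference between the responses pass: it was -0.09 for Traf6 (95% interval -0.31 to 0.13) and 0.06 for Tollip (-0.10 to 0.21). When dim genes were left out, the other response of each passed as well, Traf6 in SIMPL-/- MEFs at an adjusted p of 0.0376 and Tollip in littermate MEFs at 0.0436. When the arrays of one genotype were fitted alone, the calls for Traf6 (adjusted p = 0.0542) and Tollip (0.117) were lost, and Tollip was also lost after quantile normalization (0.0727). The unpaired test that the methods name lost the calls for Traf6 (adjusted p = 0.162) and Tollip (0.133) as well.

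Tab3 and Tab1, partners in one complex, responded in opposite directions in SIMPL-/- MEFs. Tab3 rose by 0.26 (SE 0.07, adjusted p = 0.0439 from limma), or 20.1%, and Tab1 fell by 0.21 (SE 0.05, adjusted p = 0.0369), a level 13.8% lower. In littermate MEFs Tab3 had 0.01 (95% interval -0.13 to 0.16) and Tab1 -0.03 (-0.15 to 0.08). Both calls in SIMPL-/- MEFs were lost when those arrays were fitted alone (adjusted p = 0.101 for Tab3 and 0.134 for Tab1). They were also lost with the unpaired test that the methods name (adjusted p = 0.236 for Tab3 and 0.2 for Tab1). The call of Tab1 was lost under both other scalings (0.054 and 0.105). That of Tab3 was lost without any 1 array other than 4, 7, 8 or 13 (adjusted p up to 0.132), and that of Tab1 without array 1, 9, 11, 12, 13 or 15 (up to 0.135). The rise of Tollip was lost without array 10, 11, 12, 13, 14 or 16 (up to 0.0975).

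The difference between the responses tests directly whether a gene answered TNFα otherwise in SIMPL-/- than in littermate MEFs. Of the 9 genes 0 passed, against 0.537% of all genes. Before adjustment 3 had a p under 0.05 from limma, as had 12.9% of all genes, and an unmoderated test called 0 after adjustment. The widest was that of Irak2, with a response of -0.12 in SIMPL-/- MEFs and 0.26 in littermate MEFs, a difference of -0.38 (SE 0.13, 95% interval -0.65 to -0.11, adjusted p = 0.225). Tab3 had a difference of 0.25 (SE 0.10, adjusted p = 0.302) and Tab1 of -0.18 (SE 0.08, adjusted p = 0.337). Irak3 had a response of 0.03 in SIMPL-/- and 0.19 in littermate MEFs, a difference of -0.16 (95% interval -0.37 to 0.05). For Irak1 the difference was 0.02, with an interval from -0.16 to 0.19. A difference between genotypes that passed with TNFα and not without it, as for Irak2, Traf6 and Tab3, is therefore not shown to depend on TNFα.

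**Figure D3:**
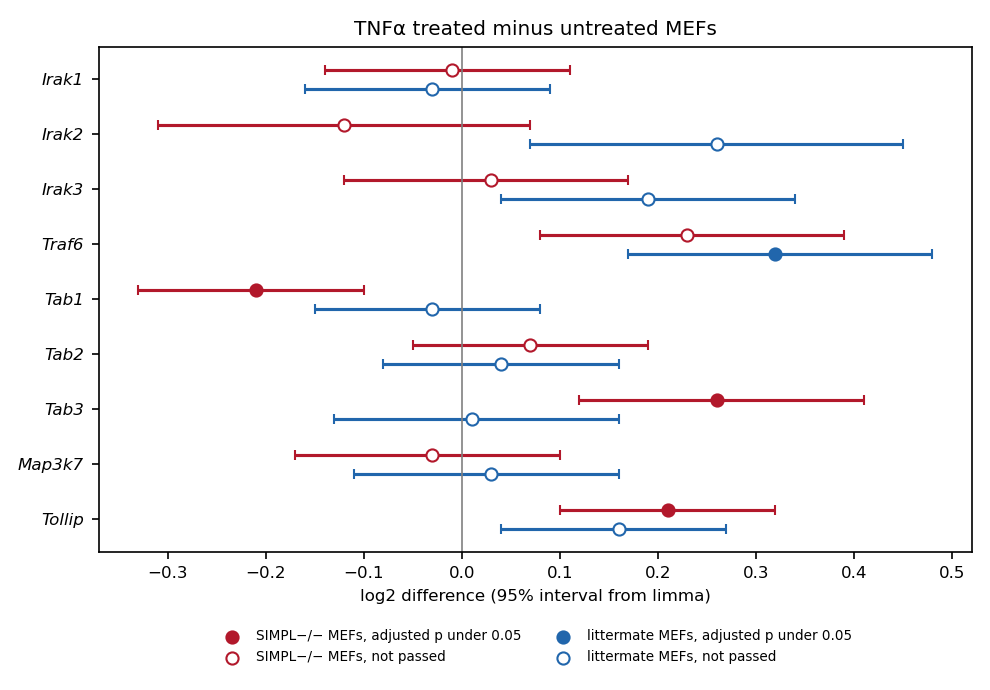
Log2 difference between TNFα treated and untreated MEFs (horizontal axis) of each gene in SIMPL-/- (red) and littermate (blue) MEFs; bars are 95% intervals from limma, filled points passed an adjusted p under 0.05. Traf6 and Tollip lie right of 0 in both genotypes, and Irak2 has its point at -0.12 in SIMPL-/- and at 0.26 in littermate MEFs.

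Upstream of the IRAK kinases, several Toll-like receptors were lower in SIMPL-/- MEFs. Of 16 measured receptors and adaptors with a TIR domain, 9 were lower and 4 higher after TNFα, and 6 were lower and 4 higher without it, with a median log2 difference of -0.26 and 0, beside 0.03 and 0.07 over all genes. Over all genes 18.4% were lower and 17.8% higher with TNFα, and 17.6% lower and 23.3% higher without it. Il1r1, Il1rl1 and Tlr5 were on the list and were not analysed here. The lower ones were led by Tlr7, a sensor of single-stranded RNA, with -2.67 with TNFα (SE 0.14, adjusted p = 1.61e-11 from limma) and -2.78 without it (adjusted p = 1.07e-11). Tlr7 moved as the myeloid markers did, and their part in this was not tested. Among the higher ones was Tirap, the adaptor that leads MyD88 to the membrane, with 0.52 and 0.49. Myd88 rose with TNFα by 0.41 in littermate MEFs (SE 0.06, adjusted p = 0.000285) and had 0.03 in SIMPL-/- MEFs, and the difference of these responses, -0.38, did not pass (adjusted p = 0.0621). Tlr2, which senses lipoproteins of bacteria, was the single gene of this list with a called difference of responses. It rose by 0.79 in SIMPL-/- and 2.25 in littermate MEFs, a difference of -1.45 (SE 0.15, adjusted p = 4.07e-05 from limma). Many of the 16 genes were dim: 11 stood under the median of all genes, 7.06, in each SIMPL-/- group. In littermate MEFs 8 did with TNFα and 9 without it.

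Around TRAF6, Tifa, Sqstm1 and Tnfaip3 rose with TNFα in both genotypes. Of 12 genes, 4 rose in SIMPL-/- MEFs and 4 in littermate MEFs, and 0 fell in either (1.73% and 2.7% of all genes rose). Ube2n passed in SIMPL-/- MEFs (0.25, against -0.06 in littermate MEFs) and Peli1 in littermate MEFs (0.01 in SIMPL-/- MEFs, against 0.24), and for neither did the difference of responses pass (adjusted p = 0.158 and 0.33). Tifa, an adaptor that makes TRAF6 form larger assemblies, rose by 0.74 in SIMPL-/- MEFs (SE 0.13, adjusted p = 0.00269 from limma) and by 0.92 in littermate MEFs (adjusted p = 0.000175). Its level was lower in SIMPL-/- than in littermate MEFs, by a log2 difference of -1.16 with TNFα (adjusted p = 1.05e-06) and -0.98 without it (adjusted p = 9.92e-06). Sqstm1, the scaffold p62 that binds TRAF6, rose by 0.31 in SIMPL-/- and 0.39 in littermate MEFs. Ube2n, which encodes the E2 enzyme Ubc13 of TRAF6, was higher in SIMPL-/- MEFs, by 0.52 with TNFα (adjusted p = 2.41e-06) and 0.21 without it (adjusted p = 0.0152). Over the 12 genes, comparing SIMPL-/- with littermate MEFs, 3 were higher and 4 lower with TNFα, and 3 were higher and 1 lower without it, with medians of -0.02 and 0.08, beside 0.03 and 0.07 over all genes. Of all genes 17.8% were higher and 18.4% lower with TNFα, and 23.3% higher and 17.6% lower without it. Tnfaip3, which encodes the ubiquitin editor A20, rose by 3.14 in SIMPL-/- and 3.70 in littermate MEFs and was the single one with a called difference of responses (-0.56, adjusted p = 0.01).

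Downstream of TAK1, more kinases were higher than lower in SIMPL-/- MEFs. The list had 13 measured genes, among them Ikbkg, which encodes the non-enzymatic scaffold NEMO of the IκB kinases and passed in neither comparison. Of the 13, 5 were higher and 2 lower in each comparison of the genotypes. The median log2 difference was 0.11 with TNFα and 0.14 without it, beside 0.03 and 0.07 over all genes. Higher were 17.8% of all genes with TNFα and 23.3% without it, and lower were 18.4% and 17.6%. Chuk and Map2k7 were on the list and were not analysed here. Nlk, a kinase that TAK1 activates in the Wnt pathway, was higher by 0.68 with TNFα (SE 0.08, adjusted p = 6.78e-07 from limma) and 0.61 without it (adjusted p = 3.09e-06). Map2k3, an activator of p38, was higher by 0.66 and 0.55 (adjusted p = 4.44e-08 and 7.2e-07), whereas Map2k6, another activator of p38, was lower by a log2 difference of -0.28 and -0.53 (adjusted p = 0.00717 and 2.42e-05). Map3k8, a kinase held by the NF-κB precursor p105, rose with TNFα by 0.65 in SIMPL-/- and 1.40 in littermate MEFs, a difference of -0.75 (SE 0.11, adjusted p = 0.00261). It was the single gene of this list whose responses differed.

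**Figure D4:**
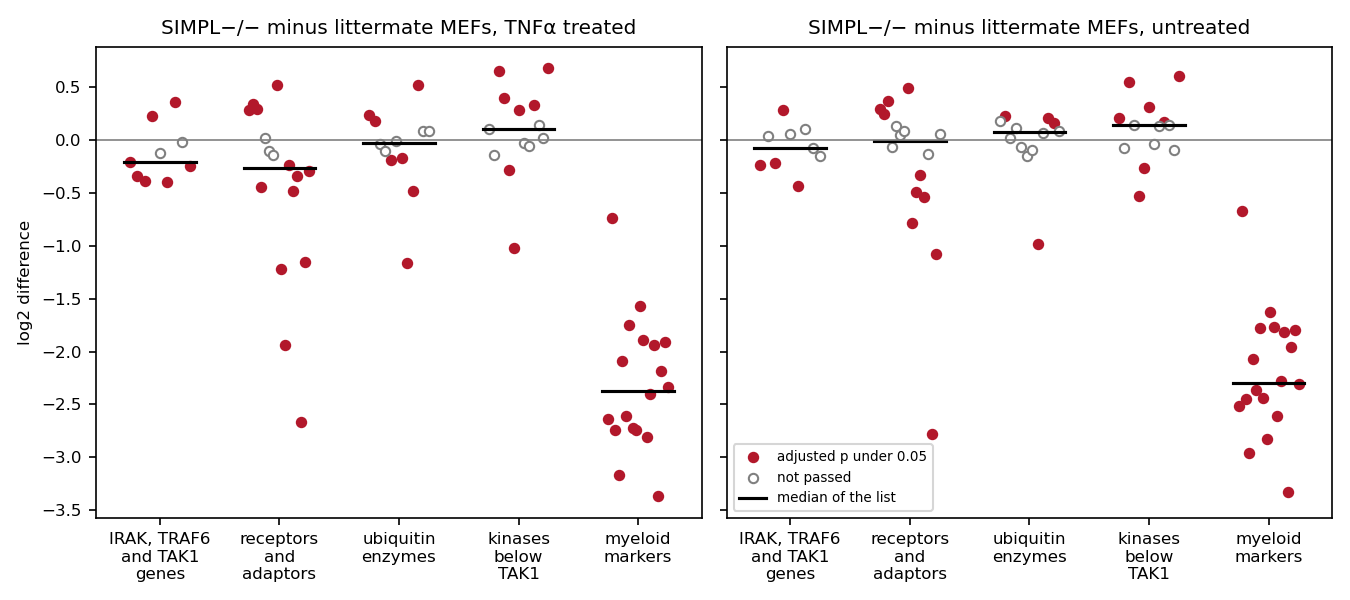
Log2 difference between SIMPL-/- and littermate MEFs (vertical axis) with TNFα (left) and without it (right), for the 9 IRAK, TRAF6 and TAK1 complex genes, 3 lists of other pathway genes and the myeloid markers; each point is a gene, filled points passed an adjusted p under 0.05, and bars are the medians of the lists. The 9 genes lie between -0.43 and 0.36, while the myeloid markers have medians of -2.37 and -2.29.

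As a description, the genes whose log2 values ran most like those of Irak1 over the 16 arrays were Il15, which encodes a cytokine (Pearson's r 0.956), Kcnj15 (0.934), Pts (0.919), Cnksr3 (0.918) and Fcgr4, an Fc receptor (0.915). For Tab2, the gene of the 9 that varied most between the groups relative to its spread, they were Dennd1a (0.980), Kcnn4 (0.976), Nell2 (0.975), Mmp16 (0.975) and Mmp13 (0.974). The arrays share the division by genotype, in which a large part of all genes differ.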

How the data were processed

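Total RNA of 16 MEF samples was hybridized to Affymetrix Mouse Gene 1.0 ST arrays. The deposited table holds log2 values, from 2.41 to 14.9, which the authors made with RMA in Partek by the submitters' processing notes, without versions. The study's methods name Affymetrix Microarray Suite instead. RMA makes the array medians nearly equal (6.67 to 6.76), so a shift shared by most genes would be removed. The platform annotation pairs 21789 of the 28853 probe sets with 1 gene symbol. Probe sets with several symbols (1621) or without an entry (5443) were not used. The brightest probe set stood for a gene. With R 4.3.3 and limma 3.58.1, 1 mean per group was fitted over all arrays (degrees of freedom: 12 residual, 6.19 prior). For 5 contrasts, tests were two-sided, with Benjamini-Hochberg adjustment over 19938 genes. P-values set a difference of group means against the spread of arrays within groups. That spread was pooled over the 4 groups and moderated over all genes. The procedure was run on simulated data with independent arrays and known changes of few genes in a single group. Widespread differences between genotypes and arrays that share an embryo were not simulated. The members and lists were chosen with earlier results of these data known. All 9 members are named, and from other lists the genes with large differences. Alternatives covered scaling, dim genes, probe sets, variance moderation, array weights, the arrays fitted, the unpaired test that the methods name, the threshold, and leaving out each array. No member had a further probe set to compare.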

Additional observations from a re-analysis of the deposited data

Results flagged for a closer look

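Of 36 gene and group combinations examined for an outlying array, 1 stood out: Tab2 in untreated SIMPL-/- MEFs, where the array at 10.76 lay apart from the others at 10.80, 10.81 and 10.81 (ratio of gap to range 0.854, above the 95% critical value for 4 arrays). The whole range of that group was 0.05 on the log2 scale, and chance gives such a result in about 1 of 20 groups.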

How the results depend on the processing

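In SIMPL-/- against littermate MEFs the count of called genes with TNFα, 7, became 4 with the unpaired test that the methods name (Irak3, Tab2, Tab3 and Map3k7) and 5 with arrays centred on their medians, and was 6 to 7 without any 1 array. The count without TNFα, 4, was 3 with the methods' test and at an adjusted p under 0.01, and 3 to 4 without any 1 array. For the TNFα response in littermate MEFs the count of 1 became 2 with dim genes left out and 0 with the compared arrays fitted alone, with the methods' test, or at an adjusted p under 0.01, and was 1 without any 1 array. For the response in SIMPL-/- MEFs the count of 3 became 4 with dim genes left out, 2 with arrays centred on their medians, 1 after quantile normalization and 0 with the compared arrays alone, with the methods' test and at an adjusted p under 0.01, and was 0 to 3 without any 1 array. The count of 0 for the difference of responses was 0 under each alternative. Signs turned for values near 0 alone, none of them called: with arrays centred on their medians, Tollip between the genotypes with TNFα (0.05) and the responses of Irak1 (0.02) and Map3k7 (0) in SIMPL-/- MEFs, and with array weights the difference of responses of Irak1 (-0.02). Leaving out 1 array turned the sign of Tollip between the genotypes with TNFα (values -0.04 to 0.02), of the responses of Tab3 in littermate MEFs (-0.02 to 0.04) and of Irak1 (-0.03 to 0.02), Irak3 (-0.02 to 0.06) and Map3k7 (-0.08 to 0.01) in SIMPL-/- MEFs, and of the differences of responses of Irak1 (-0.01 to 0.07) and Tab2 (0 to 0.08). Depth has no counterpart on arrays. Irak2 stood below the median gene in 3 of the 4 groups and was dropped with dim genes, so its fold changes may be compressed. No paired analysis was possible because it is not known which arrays came from the same embryo.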
